A study of Mus musculus with 33 samples.

Results

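Toll-like receptors are the germline-encoded sensors with which macrophages recognise microbial lipids, proteins and nucleic acids. The account here covers 10 of the 54146 genes listed in the files: the receptor genes Tlr1, Tlr2, Tlr3, Tlr4, Tlr7, Tlr9 and Tlr13 and the accessory genes Cd14, Cd180 and Ly86. They were chosen by name, with earlier results of these data known. All 10 reached a mean of at least 5 CPM (read counts set to one library size) in at least 1 group of libraries, and 7 of them had counts in all 33 libraries.

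RNA was sequenced from microglia, the resident macrophages of the brain, isolated without enzymes from C57BL/6 mice labelled female and sorted by fluorescence. The 33 libraries fell into 10 groups. At 3 months there were 4 libraries of IRF8KO mice, titled as lacking the transcription factor IRF8, and 4 of WT mice titled as their controls. At 9 months there were 3 libraries each of WT, IRF8KO, 5xFAD (genotype label 5xFAD/WT) and 5xFAD/IRF8KO mice, where 5xFAD is a transgenic model of amyloid deposition that carries human genes with familial Alzheimer's disease mutations under a neuronal promoter. A second 3-month experiment had 3 Batf3KO libraries, from mice lacking the leucine zipper factor BATF3, and 3 libraries of their own WT controls. The conditional experiment had 3 libraries of genotype IRF8flox, titled WT and called flox here, and 4 of genotype IRF8floxCx3cr1CreERT2, called Cre here. Both of these groups were labelled as given tamoxifen for 5 days from postnatal day 12 and were taken at 3 months. The Cre is driven by Cx3cr1, a gene also active in other macrophages and in monocytes, and the design text describes a Rosa26LSL-EYFP reporter by which YFP-positive microglia were sorted. The labels say that microglia came from each brain and do not otherwise state that libraries are separate animals, so p-values measure the spread between these samples, which may in part be technical.

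As background, TLR1, TLR2 and TLR4 sit at the cell surface and read bacterial lipids: TLR2 pairs with TLR1 on lipoproteins, and TLR4 with its partner MD-2, encoded by Ly96, reads lipopolysaccharide that CD14 hands over. TLR3, TLR7, TLR9 and TLR13 work inside endosomes on double-stranded RNA, single-stranded RNA, unmethylated CpG DNA and bacterial ribosomal RNA, and they need the chaperone UNC93B1 to get there. CD180 is a surface receptor that lacks a signalling domain of the Toll type and is held at the membrane by MD-1, the product of Ly86, as TLR4 is by MD-2. IRF8 commonly binds DNA next to PU.1, an ETS factor of myeloid cells, at composite elements that join an ETS site to an IRF site.

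The promoters of 3 members are shown because Ly86 had the largest falls without Irf8 in 2 of the 3 comparisons of IRF8KO genotypes and Tlr9 and Tlr13 were among the windows that held a PU.1 core. RefSeq windows of 300 bases, 250 before and 50 after each annotated start on GRCm38.p6, were found for 7 of the 9 members looked up, as 9 windows. Cd14 was not looked up, and Tlr4 and Tlr7 had no entry. The sequences run 5′ to 3′ on the gene's strand, and capitals mark GAGGAA, the PU.1 core, on either strand.
Ly86, chr13:37345095-37345394, plus strand: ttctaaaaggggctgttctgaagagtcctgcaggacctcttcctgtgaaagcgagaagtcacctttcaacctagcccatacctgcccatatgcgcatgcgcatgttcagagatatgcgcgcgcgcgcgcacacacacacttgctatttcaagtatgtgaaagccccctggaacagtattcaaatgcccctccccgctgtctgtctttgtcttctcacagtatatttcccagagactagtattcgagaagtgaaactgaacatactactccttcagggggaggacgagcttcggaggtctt
Tlr9, chr9:106222348-106222647, plus strand: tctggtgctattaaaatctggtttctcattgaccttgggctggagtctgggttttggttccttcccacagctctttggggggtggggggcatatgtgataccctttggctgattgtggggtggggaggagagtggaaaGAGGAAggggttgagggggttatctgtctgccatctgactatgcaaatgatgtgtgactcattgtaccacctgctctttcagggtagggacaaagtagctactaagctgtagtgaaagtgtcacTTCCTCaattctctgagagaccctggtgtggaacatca
Tlr13, chrX:106143025-106143324, plus strand: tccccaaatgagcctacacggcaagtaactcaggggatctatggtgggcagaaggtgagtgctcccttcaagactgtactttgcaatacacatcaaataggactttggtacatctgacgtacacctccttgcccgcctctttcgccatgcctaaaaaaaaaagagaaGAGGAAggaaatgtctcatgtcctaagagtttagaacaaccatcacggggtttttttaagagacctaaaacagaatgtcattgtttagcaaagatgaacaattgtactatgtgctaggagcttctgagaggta
On both strands, the ETS-IRF composite element GGAANNGAAA was found in 0 of the 9 windows, against 2.72% of all 32851 RefSeq mouse windows of this length. The interferon-stimulated response element GAAANNGAAA was found in 0 of the 9, against 3.44%. The PU.1 core was found in 3 of the 9, those of Tlr1, Tlr9 and Tlr13, against 28.3%. In Tlr9 it began at positions -112 on the plus strand and 13 on the minus strand relative to the start, in Tlr13 at -83 and in Tlr1 at -23. A shared GGAA can belong to both the composite element and the PU.1 core. Only exact matches to the fixed letters were counted, so similar sites that differ at a fixed base were missed. These matches describe letters in the windows and were not set against any binding data.

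Counts in genes ran from 605376 to 18357762 per library, and the shallowest was a WT library at 9 months. The targeted gene Irf8 was lower in each library without germline Irf8 than in each control of its age, at 104 to 185 CPM (IRF8KO) against 253 to 333 (WT) at 3 months and 15.9 to 138 (IRF8KO) against 500.1 to 583 (WT) at 9 months, and Batf3 was 0.429 to 0.508 CPM in Batf3KO against 23.1 to 27.7 in its WT. All libraries are labelled female, yet the Y-linked transcript Ddx3y was at 6.07 to 98.2 CPM in the 8 libraries of the 3-month IRF8KO experiment and at 2.44 to 122.1 CPM in 10 of the 12 aged 9 months, and at 0 in 5xFAD replicates 1 and 2 and in the other experiments. The part of sex in the differences between groups, such as 5xFAD against WT at 9 months, was not tested. The library labelled Cre replicate 1 had 1126 CPM of Irf8, within the 953 to 1186 of flox and against its label, while the libraries labelled Cre replicates 2 to 4 had 412, 346 and 481. Of the microglial markers (8 genes such as P2ry12 and Tmem119) 7 or 8 had counts in every library. The list took 4.43% to 4.97% of counts for WT against 0.276% to 0.614% for IRF8KO at 9 months, and 0.799% to 1.9% against 0.439% to 0.707% at 3 months. The 13 neutrophil markers went the other way. They took 0.853% to 5.38% of counts for WT against 7.61% to 16.5% for IRF8KO at 3 months. At 9 months they took up to 0.00033% for WT against 6.46% to 9.04% for IRF8KO, and up to 0.000207% for 5xFAD against 8.22% to 14.6% for 5xFAD/IRF8KO. All 13 were detected in every IRF8KO and 5xFAD/IRF8KO library, and Elane, Mpo, Ctsg, Ltf, Lcn2 and Mmp8 were at 0 in WT at 9 months. The 7 monocyte markers took 0.0485% to 0.258% (WT) against 0.593% to 1.41% (IRF8KO) at 3 months, and up to 0.000418% against 0.626% to 1.53% at 9 months. Border macrophage markers (7 genes) took 0.00364% to 0.0191% against 0.0868% to 0.132% at 3 months and 0.000991% to 0.00167% against 0.071% to 0.0863% at 9 months. Markers of further cell types moved too at 9 months, from WT to IRF8KO: red blood cell markers took up to 0.00529% against 2.38% to 15.8%, oligodendrocyte markers 0.0232% to 0.0271% against 0.604% to 0.959%, astrocyte markers 0.0207% to 0.0218% against 0.22% to 0.279% and neuron markers up to 0.000358% against 0.0539% to 0.27%. At 3 months the ranges of these 4 lists overlapped between WT and IRF8KO. Among their genes 2 of the 5 neuron markers were called lower in IRF8KO then, against 3.24% of all genes, and no other was called. At 9 months the endothelial share was lower, 0.014% to 0.0253% for WT against 0.00186% to 0.00444% for IRF8KO. Yet 2 of its 4 genes tested were called higher and 0 lower, where 19.6% of all genes were called higher. Dendritic cell markers were lower too (0.000712% to 0.00165% against 9.75e-05% to 0.000367%), and T and NK cell markers higher (up to 0.00033% against 0.00399% to 0.0215%). The share of the dissociation response genes at 9 months was 0.133% to 0.321% for WT libraries against 0.0335% to 0.0711% for those of IRF8KO. Neutrophils and monocytes are known to carry Tlr2, Tlr4 and Cd14 as well. The part of these other cells and of the dissociation response in the IRF8KO differences that follow was not tested, and in such bulk samples fewer cells of a type and less RNA per cell cannot be told apart.

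Levels of the members are CPM scaled by TMM factors over all 33 libraries. Set per kilobase of exon, so that genes can be compared, the accessory genes Cd14 and Ly86 stood far above the receptors. In WT at 9 months the level was 266.8 ± 18.9 CPM per kb for Cd14 and 243.9 ± 56.7 for Ly86 (SD, n = 3), against 62.8 for Tlr13, 50.6 for Tlr2, 46.5 for Tlr7, 25.9 for Tlr4, 24.6 for Tlr1, 17.4 for Tlr3, 7.58 for Cd180 and 1.00 for Tlr9. Tlr9, the DNA sensor, was thus the lowest member and Tlr13, the sensor of bacterial ribosomal RNA, the highest receptor by mean. In the WT libraries of the Batf3KO experiment Tlr2 led the receptors with 82.4 CPM per kb, ahead of Tlr13 with 73.3. In flox, Tlr7 led with 19.0 and Tlr2 and Tlr13 followed with 9.32 and 8.35. In IRF8KO at 9 months Cd14 remained first with 170.9 CPM per kb, and Ly86 was 1.77, below Tlr1 at 2.18. Cd180 is the surface receptor that MD-1 partners, and its level per kb was 7.58 where that of Ly86 was 243.9 in WT at 9 months, and 1.25 where that of Ly86 was 1.77 in IRF8KO.

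**Figure D1:**
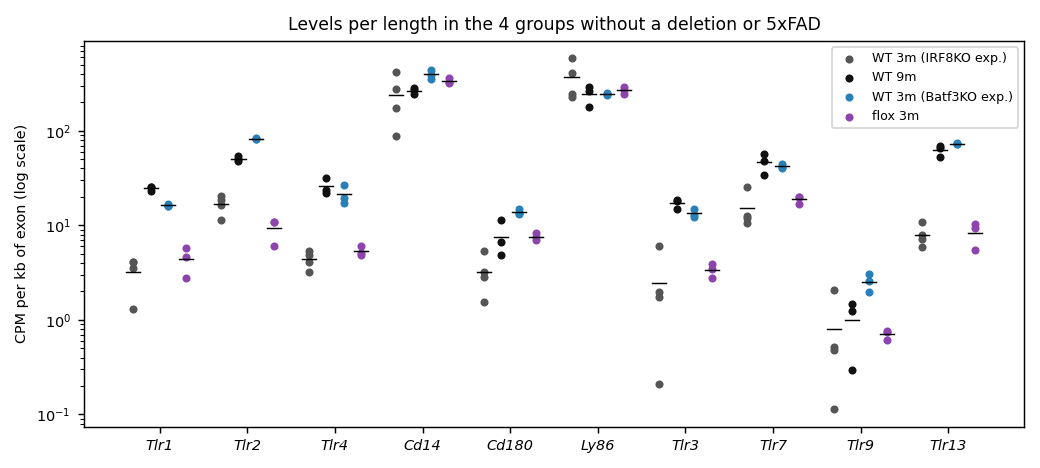
Level of each member in CPM per kilobase of exon (log scale) in the libraries of the 4 groups that carry neither a deletion nor 5xFAD. Points are libraries and bars are group means; Cd14 and Ly86 lie above all receptors in these groups and Tlr9 has the lowest mean in each.

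Ly86, which encodes the MD-1 partner of CD180 (ENSMUSG00000021423.6, GRCm38 chromosome 13, 37345208 to 37419036, plus strand), was all but lost in every IRF8KO group. In the younger mice its level was 2128, 1504, 897.6 and 836.0 CPM in the WT libraries and, in those of IRF8KO, 9.75, 2.69, 12.01 and 17.7 CPM. At the later age it was 953, 1050.2 and 655 CPM in the WT libraries and, in those of IRF8KO, 8.86, 0.437 and 9.97 CPM. Among 5xFAD libraries it was 2058, 1789.9 and 2725 CPM against 4.75, 1.98 and 4.55 CPM in 5xFAD/IRF8KO. The libraries without Irf8 lay below every library with it in all 3 comparisons. The fall was 135-fold at 3 months (log2 -7.08, SE 0.645, adjusted p = 0.000397), 153-fold at 9 months (log2 -7.26, SE 0.814, adjusted p = 5.21e-05) and 622-fold in the presence of 5xFAD (log2 -9.28, SE 0.884, adjusted p = 1.79e-05). These calls held under every alternative setting and with any 1 library left out. Every 5xFAD library had more Ly86 than every WT library at that age, but that difference did not pass the test (log2 1.23, SE 0.622, adjusted p = 0.531), while it did when only those 2 groups were fitted (1.16, adjusted p = 0.00047) and with limma voom (1.04, adjusted p = 5.91e-05). The effects of IRF8KO at 9 and 3 months differed by -0.09 (log2, SE 0.908, adjusted p = 0.969). The 4 WT libraries at 3 months ranked alike by Ly86, by Cd14 and by the summed microglial markers, which took 1.9%, 1.7%, 1.29% and 0.799% of their counts.

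Cd180 itself (ENSMUSG00000021624.9, chromosome 13, 102693558 to 102739629, plus strand, with Mast4 on the opposite strand) was lower on average without Irf8 but did not pass the test. In the younger mice it was 24.3, 7.03, 14.4 and 12.7 CPM in the WT libraries and, in those of IRF8KO, 5.62, 11.4, 1.57 and 6.56 CPM, and the groups overlapped. At the later age it was 29.7, 51.0 and 21.8 CPM in the WT libraries and, in those of IRF8KO, 0.77, 5.1 and 11.1 CPM, with no overlap. Under 5xFAD its level was 44.0, 26.9 and 31.1 CPM against 22.2, 0.27 and 1.16 CPM in 5xFAD/IRF8KO, also with no overlap. The log2 differences were -1.27 (SE 0.741, adjusted p = 0.333), -2.74 (SE 1.29, adjusted p = 0.131) and -2.24 (SE 1.26, adjusted p = 0.21). The last became -5.64 with an adjusted p of 0.00662 without the 5xFAD/IRF8KO replicate 1, the library at 22.2 CPM. The 9-month call was gained with adjusted p = 0.0351 without that same library, with no filter (0.0308) and with all libraries in 1 model (0.021).

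Tlr2, the lipoprotein receptor (ENSMUSG00000027995.10, chromosome 3, 83836272 to 83841767, minus strand), rose in IRF8KO at 3 months. Its level there was 34.8, 49.5, 55.7 and 61.7 CPM in the WT libraries and, in those of IRF8KO, 95.05, 105.7, 142.5 and 126.7 CPM, with no overlap. The difference was 2.22-fold (log2 1.15, SE 0.302, adjusted p = 0.0382). The call was lost (adjusted p 0.0547 to 0.113) when any 1 library was left out, except WT replicate 4, and with no filter on low counts (0.123). At 9 months WT had 161.8, 144.1 and 151.5 CPM and IRF8KO 332.0, 214.4 and 192.2 CPM, again without overlap. Without TMM scaling these groups overlapped, at 202.6 to 241.2 CPM in WT against 180.0 to 315.1 CPM in IRF8KO, and the log2 ratio of their means was 0.12 in place of 0.69. That difference (log2 0.53, SE 0.281, adjusted p = 0.183) did not pass the test. With the 5xFAD transgenes it was 230.7, 199.5 and 211.9 CPM against 235.5, 345.5 and 176.5 CPM in 5xFAD/IRF8KO, and the groups overlapped (log2 0.13, adjusted p = 0.773).

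Tlr4, the lipopolysaccharide receptor (ENSMUSG00000039005.13, chromosome 4, 66827584 to 66930284, plus strand), moved in opposite directions at the 2 ages. In the younger mice it was 17.7, 22.9, 27.1 and 29.7 CPM in the WT libraries and, in those of IRF8KO, 83.4, 79.4, 51.1 and 58.1 CPM, a 2.67-fold rise (log2 1.42, SE 0.347, adjusted p = 0.0298). At the later age it was 176.8, 133.0 and 121.4 CPM in the WT libraries and, in those of IRF8KO, 97.7, 89.3 and 73.4 CPM, a 1.86-fold fall (log2 -0.89, SE 0.259, adjusted p = 0.0225). Neither age showed overlap between the groups. The effect at 9 months was lower than that at 3 months by 2.24 on the log2 scale (log2 -2.24, SE 0.444, adjusted p = 0.00158), a call that held under every alternative. Tlr4 averaged 24.3 CPM in WT at 3 months and 143.8 CPM in WT at 9 months, against 68.0 and 86.8 in IRF8KO. Age and whatever else separated the 3-month from the 9-month libraries cannot be told apart. Of the single calls, the one at 3 months was lost without WT replicate 2 (adjusted p = 0.0579) and without IRF8KO replicates 1 to 4 in turn (0.114, 0.0875, 0.0501 and 0.0647). With no filter on low counts it was also lost (0.0668). The one at 9 months was lost without WT replicate 1 (0.079) or 2 (0.056), with no filter (0.105), with limma voom (0.0622) and with only the 2 groups fitted (0.0524). Among 5xFAD libraries it was 159.1, 139.2 and 119.6 CPM against 121.1, 80.5 and 101.5 CPM in 5xFAD/IRF8KO (log2 -0.57, SE 0.257, adjusted p = 0.118), with overlap.

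Cd14, the co-receptor that delivers lipopolysaccharide to TLR4 (ENSMUSG00000051439.6, chromosome 18, 36725067 to 36726798, minus strand), fell without Irf8 at 9 months and rose in 5xFAD. WT had 464.2, 493.8 and 428.5 CPM, IRF8KO 328.7, 328.8 and 230.4 CPM, 5xFAD 798.6, 991.0 and 982.6 CPM, and 5xFAD/IRF8KO 253.6, 231.0 and 234.8 CPM. The 3 libraries of 5xFAD were the highest and none of these 4 groups overlapped, except IRF8KO with 5xFAD/IRF8KO. The rise in 5xFAD was 1.9-fold (log2 0.92, SE 0.205, adjusted p = 0.0412), the fall in IRF8KO was 1.75-fold (log2 -0.80, SE 0.205, adjusted p = 0.0119) and the fall in 5xFAD/IRF8KO against 5xFAD was 4.14-fold (log2 -2.05, SE 0.211, adjusted p = 2.81e-05). The 4.14-fold fall held under every alternative. Y-linked transcripts took 0.0275% to 0.0307% of counts in WT and 0%, 0% and 0.0156% in the 5xFAD libraries. Sex and 5xFAD cannot be fully told apart there, and the part of sex in the rise of Cd14 was not tested. The interaction, which asks whether the Irf8 effect differed with 5xFAD, was -1.25 (log2, SE 0.288, adjusted p = 0.0771), and it was called without IRF8KO replicate 3 (-1.36, adjusted p = 0.0349). The 5xFAD call was lost without any 1 of the WT or 5xFAD libraries (adjusted p 0.0808 to 0.264) and without 5xFAD/IRF8KO replicate 1 (0.0638) or 2 (0.0552). It was lost as well with no filter (0.262), with size factors of the DESeq2 type (0.0783) and with all 33 libraries in 1 model (0.0721). The IRF8KO call was lost without WT replicate 2 (0.0509), with only the 2 groups fitted (0.0581) and with all libraries in 1 model (0.107). At 3 months WT had 720.9, 479.6, 303.1 and 153.1 CPM and IRF8KO 138.7, 209.4, 182.8 and 235.6 CPM. These groups overlapped through WT replicate 4, and the difference (log2 -1.19, SE 0.441, adjusted p = 0.119) was called without that library (-1.47, adjusted p = 0.0311), as it was with no filter (0.0308), DESeq2 (0.0376), limma voom (0.0263) and all libraries in 1 model (0.00543).

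Tlr1, the partner of TLR2 (ENSMUSG00000044827.10, chromosome 5, 64924679 to 64933563, minus strand), has the closely related gene Tlr6 as its neighbour, and reads shared by the pair would not have been counted. It was 4.42, 13.6, 11.9 and 13.6 CPM in the WT libraries and, in those of IRF8KO, 22.5, 11.4, 19.3 and 18.6 CPM at 3 months, with overlap (log2 0.64, SE 0.55, adjusted p = 0.53). At the later age it was 85.7, 84.6 and 76.8 CPM in WT, while IRF8KO had 0, 21.9 and 0 CPM. Under 5xFAD its level was 133.5, 88.6 and 115.8 CPM, and 5xFAD/IRF8KO had 25.2, 16.2 and 0 CPM. The 9-month groups did not overlap, but the 2 differences (log2 -3.65, SE 1.75, adjusted p = 0.139, and log2 -3.14, SE 1.7, adjusted p = 0.192) did not pass the test. The first became -12.47 with an adjusted p of 0.00643 without IRF8KO replicate 2, the library at 21.9 CPM, and it was also called with no filter (0.000592), limma voom (0.0139) and all libraries in 1 model (0.0157).

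**Figure D2:**
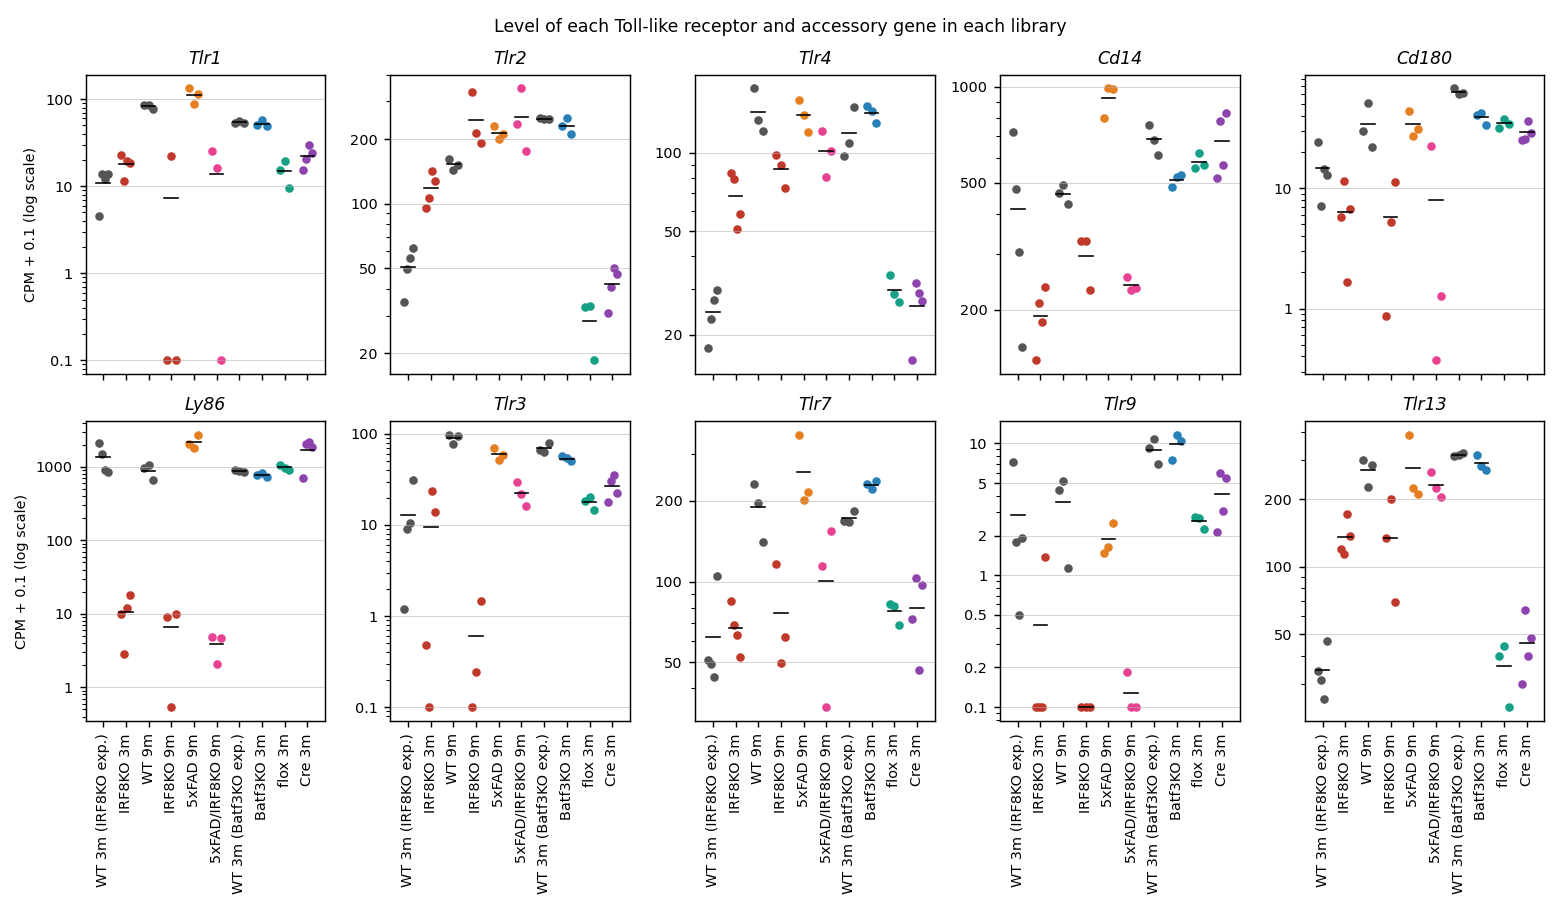
Level of each of the 10 genes in each of the 33 libraries (CPM + 0.1, log scale), with bars at the group means; a library with 0 counts sits at 0.1. Ly86 lies at 0.437 to 17.7 CPM in the 10 libraries without germline Irf8 and at 655 CPM or more in the others, and Tlr3, Tlr4, Tlr13 and Tlr1 are higher in WT at 9 months than in WT at 3 months of the IRF8KO experiment.

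Among the endosomal receptors, Tlr3, the sensor of double-stranded RNA (ENSMUSG00000031639.12, chromosome 8, 45395665 to 45411080, minus strand, with Gm45542 on the opposite strand), had the largest fitted fall at 9 months among members with counts in both groups, and it was the member whose Irf8 effect differed with 5xFAD by the test. WT had 97.8, 78.2 and 95.5 CPM and IRF8KO 0, 0.146 and 1.35 CPM, a 191-fold fall (log2 -7.58, SE 0.916, adjusted p = 8.95e-05) that held under every alternative. With the 5xFAD transgenes it was 69.5, 51.8 and 59.3 CPM against 29.2, 22 and 16.2 CPM in 5xFAD/IRF8KO, where every library was lower but the difference was not called (log2 -1.53, SE 0.678, adjusted p = 0.114). The groups did not overlap in either pair. Tlr3 was 41.8-fold higher in 5xFAD/IRF8KO than in IRF8KO (log2 5.38, SE 0.845, adjusted p = 0.0312), and the interaction was 6.05 (log2, SE 1.06, adjusted p = 0.0395). These comparisons share the IRF8KO, WT and 5xFAD libraries, and the IRF8KO group had 12 counts of Tlr3 in all. Neither of the last calls held throughout. The interaction was lost with limma voom (adjusted p = 0.105), without any 1 WT or 5xFAD library (0.0877 to 0.187) and without 5xFAD/IRF8KO replicate 1 (0.077) or 2 (0.0537), and the 41.8-fold difference was lost without any 1 WT or 5xFAD library (0.0799 to 0.109), with limma voom (0.604) and when only the 2 groups compared were fitted (0.999). At 3 months Tlr3 was 1.1, 9.02, 10.3 and 31.2 CPM in the WT libraries and, in those of IRF8KO, 0.375, 0, 23.4 and 13.7 CPM, spread over the same range (log2 -0.55, adjusted p = 0.839). The 9-month effect was lower than the 3-month effect (log2 -6.92, SE 1.93, adjusted p = 0.0153), a call that was lost with limma voom (0.0918).

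Tlr7, the X-linked sensor of single-stranded RNA (ENSMUSG00000044583.13, chromosome X, 167304929 to 167330558, minus strand), fell without Irf8 at 9 months with and without 5xFAD. WT had 232.0, 197.2 and 140.1 CPM against 116.3, 49.4 and 62.1 CPM in IRF8KO, a 2.81-fold fall (log2 -1.49, SE 0.499, adjusted p = 0.0419). Among 5xFAD libraries it was 353.3, 201.9 and 216.2 CPM against 113.8, 33.9 and 154.4 CPM in 5xFAD/IRF8KO (log2 -1.46, SE 0.497, adjusted p = 0.0457). The groups did not overlap in either pair, and both calls were near the threshold. The first was lost without any 1 of 7 of the 12 libraries of the model (WT replicates 1 and 2, IRF8KO replicates 2 and 3, 5xFAD replicates 1 and 2 and 5xFAD/IRF8KO replicate 1; adjusted p 0.0506 to 0.109). The second was lost without any 1 WT or 5xFAD library or 5xFAD/IRF8KO replicate 1 or 2 (0.0508 to 0.175), and with only the 2 groups fitted (0.0852). The X-linked silencing RNA Xist, which marks female cells, was 0 to 1.04 CPM for WT at this age, 6.27 to 162.2 for IRF8KO, 6.22 to 96.8 for 5xFAD and 9.92 to 43.8 for 5xFAD/IRF8KO, and its part in the levels of Tlr7 and Tlr13 was not tested. At 3 months WT had 50.8, 49.2, 43.8 and 104.9 CPM of Tlr7 and IRF8KO 84.4, 68.8, 63.0 and 52.3 CPM, and the groups overlapped (log2 0.04, adjusted p = 0.963).

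Tlr9, the CpG DNA sensor (ENSMUSG00000045322.10, chromosome 9, 106222598 to 106226883, plus strand), was the rarest member and had 7 counts or fewer in each library without Irf8. At 9 months the 3 WT libraries had 33, 12 and 1 counts (4.34, 5.1 and 1.04 CPM), and the 3 IRF8KO libraries had 0. Against a floor of 3 counts over the IRF8KO group, 0.132 CPM, this was at least 32-fold lower in IRF8KO (adjusted p = 0.00545 for the count model, a call that held under every alternative). 5xFAD libraries had 17, 9 and 5 counts and 5xFAD/IRF8KO libraries 1, 0 and 0, a ratio of 52.2 with an exact 95% counting interval of 8.7 to 2130 (adjusted p = 0.0169). That call was lost without any 1 5xFAD library (0.0633 to 0.0675), without 5xFAD/IRF8KO replicate 2 (0.0528) or 3 (0.0514), with no filter (0.125) and with limma voom (0.0599). At 3 months WT had 13, 16, 6 and 12 counts, and IRF8KO had 0, 0, 0 and 7, too few to enter the test. B cells also carry Tlr9, and B cell markers took 0.0467% to 0.196% of counts (WT) against 0.0433% to 0.0537% (IRF8KO) at 3 months, and 0.0759% to 0.0839% against 0.0101% to 0.138% at 9 months. At 9 months 2 of the 7 B cell markers had counts in each WT library, against 5, 3 and 5 in the IRF8KO libraries. The WT share at that age thus rested on 2 genes, and the summed share need not follow the number of B cells. Of the 5 tested there, 2 were called higher in IRF8KO and 0 lower, where 19.6% of all genes were called higher. At 3 months 2 of 7 were called lower and 0 higher, where 3.24% of all genes were called lower. The part of B cells in the Tlr9 difference was not tested.

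Tlr13, the X-linked sensor of bacterial ribosomal RNA (ENSMUSG00000033777.4, chromosome X, 106143204 to 106160493, plus strand), changed direction between the ages as Tlr4 did. In the younger mice it was 34.2, 31.1, 25.6 and 46.5 CPM in the WT libraries and, in those of IRF8KO, 119.8, 114.2, 171.8 and 137.1 CPM, a 3.75-fold rise (log2 1.91, SE 0.319, adjusted p = 0.00543) that held under every alternative. At the later age it was 298.7, 227.4 and 285.3 CPM in the WT libraries and, in those of IRF8KO, 134.1, 201.8 and 69.2 CPM, a 2.24-fold fall (log2 -1.16, SE 0.369, adjusted p = 0.0334). Neither age had overlapping groups. The difference of the effects was -3.01 (log2, SE 0.498, adjusted p = 0.000351) and held under every alternative. The IRF8KO means at 3 and 9 months were 135.7 and 135.0 CPM, while the WT means were 34.3 and 270.5 CPM. The 9-month call was lost without any 1 WT library (adjusted p 0.0586 to 0.0772), IRF8KO replicate 3 (0.0522) or 5xFAD replicate 2 (0.0509), and with only the 2 groups fitted (0.0803). Under 5xFAD its level was 389.1, 225.2 and 211.0 CPM against 266.1, 226.0 and 204.8 CPM in 5xFAD/IRF8KO, with overlap (log2 -0.36, SE 0.363, adjusted p = 0.514).

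Counted over the members, IRF8KO at 3 months had 3 called higher (Tlr2, Tlr4 and Tlr13) and 1 lower (Ly86) of 9 tested, where 4.15% of all 13121 genes were called higher and 3.24% lower. At 9 months 7 of 10 were called lower (Tlr3, Tlr4, Tlr7, Tlr9, Tlr13, Cd14 and Ly86), where 8.68% of all 14604 genes were called lower and 19.6% higher. For 9 of the 10 the IRF8KO libraries were all lower than the WT ones, as they were for 19.3% of all genes, and for Tlr2 they were all higher with TMM scaling but overlapped WT without it. In 5xFAD against WT, Cd14 alone was called, where the test called 1.81% of genes higher and 0.178% lower. In 5xFAD/IRF8KO against 5xFAD, 4 of 10 were called lower (Tlr7, Tlr9, Cd14 and Ly86), where 9.72% of genes were called lower and 18% higher. There 7 of the 10 were lower in every library, against 21.5% of all genes. Tlr3 was the one member called higher in 5xFAD/IRF8KO against IRF8KO, where 0.123% of genes were, and the one called in the interaction, where 0.438% were. The median log2 difference of the members was 0.04 at 3 months and -2.12 at 9 months, and that over all genes was -0.02 and 0.25. The effect at 9 months was called lower than that at 3 months for 3 of 10 members (Tlr3, Tlr4 and Tlr13), against 5.92% of genes. WT at 9 months and 5xFAD serve in more than one of these comparisons, so the comparisons are not independent. Without TMM scaling the median of all genes moved by -0.52 on the log2 scale in IRF8KO at 9 months, by -0.24 in 5xFAD and by -0.21 in 5xFAD/IRF8KO against 5xFAD, so members that fell stayed lower under either scaling, and Tlr13 in 5xFAD, which was not called, changed from 0.02 to -0.42. Without TMM scaling the log2 ratio of Cd14 in 5xFAD was 0.57 in place of 1.00, and the libraries of 5xFAD/IRF8KO were all below those of 5xFAD for Tlr4 as well.

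**Figure D3:**
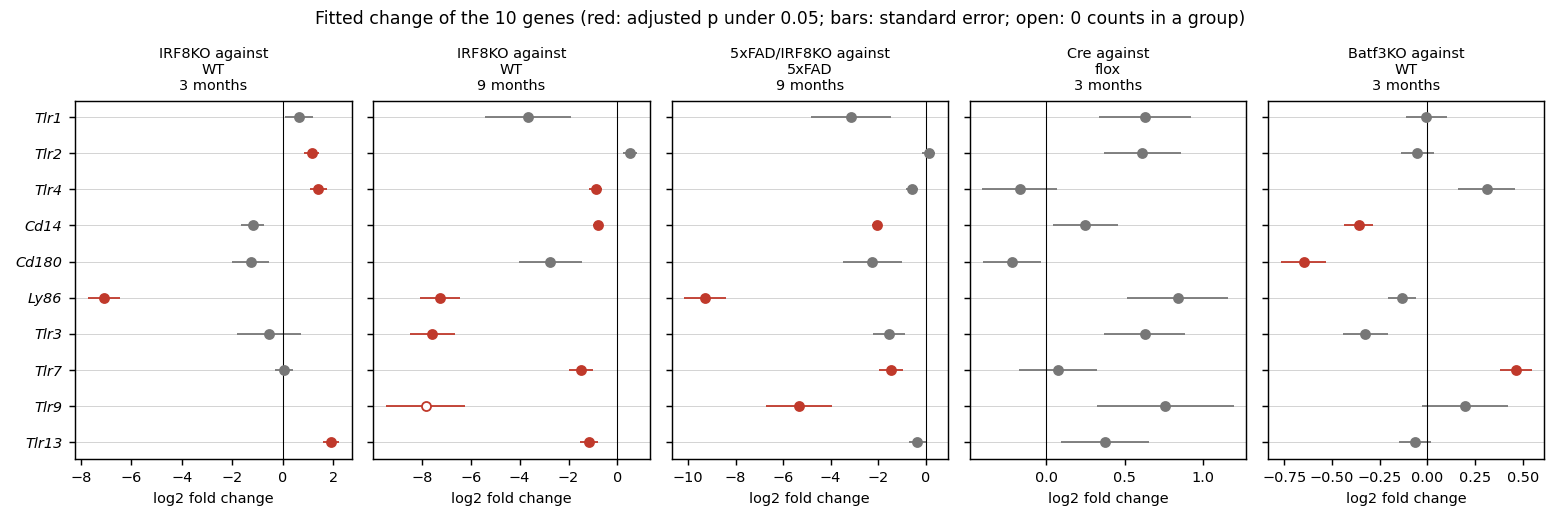
Fitted log2 fold change of each member in 5 comparisons, with bars of 1 standard error; red points have an adjusted p under 0.05, the open point marks a gene with 0 counts in a group, and each panel has its own scale. Ly86 lies between -7.08 and -9.28 in the 3 comparisons without germline Irf8, and Tlr4 and Tlr13 lie on opposite sides of 0 at 3 and 9 months.

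**Figure D4:**
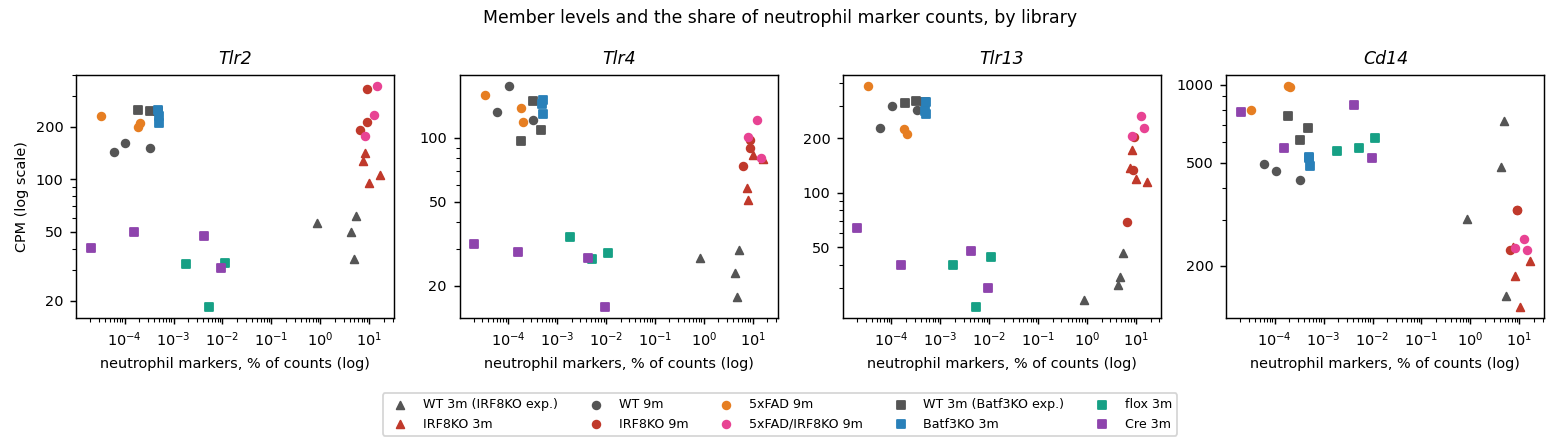
Level of Tlr2, Tlr4, Tlr13 and Cd14 (CPM, log scale) against the share of counts in the 13 neutrophil markers (percent, log scale), 1 point a library. Libraries of the 3 groups without germline Irf8 lie at 6.46% to 16.5% of neutrophil marker counts, WT at 3 months of the IRF8KO experiment at 0.853% to 5.38% and the other groups at or below 0.0111%, where Tlr2, Tlr4 and Tlr13 take both low levels (flox and Cre) and high levels (WT at 9 months, 5xFAD and the Batf3KO experiment).

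In the conditional experiment no member passed the test with all libraries in and the filter on low counts applied. With 3 flox and 4 Cre libraries, edgeR called none of the 10. Ly86, Tlr2, Tlr3 and Tlr1 had an unadjusted p under 0.05, and of all 15512 genes 0% were called, with 1407 under that unadjusted p. Neither DESeq2 nor limma voom called a member, while edgeR with no filter on low counts called 1. Ly86 was 1068, 972 and 900.1 CPM in flox and 707, 2041, 2187 and 1870.3 CPM in Cre, where replicate 1, the library against its label, lay below flox and the others lay above. With all 4, the log2 difference was 0.84 (SE 0.323, adjusted p = 0.433). Without Cre replicate 1, Ly86 was called higher (log2 1.10, adjusted p = 0.000272), as were Tlr2 (0.75, adjusted p = 0.0407) and Tlr3 (0.78, adjusted p = 0.0363), 3 members where 3.74% of genes were called higher. Tlr2 was then 32.8, 33.05 and 18.4 CPM in flox and 40.5, 49.8 and 47.0 CPM in Cre replicates 2 to 4. Border macrophage markers took 0.0111% to 0.0157% of counts in flox, 0.0204% in Cre replicate 1 and 0.000645% to 0.0011% in Cre replicates 2 to 4, and the part of these cells in the difference was not tested. Neutrophil markers were at or below 0.0111% in both groups.

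Set against the germline effect at 3 months, the Cre effect differed for 3 of 10 members, where 7.04% of genes differed in either direction. The Ly86 effect was higher by 7.99 (log2, SE 0.756, adjusted p = 4.05e-05) under every alternative, while the Tlr4 effect was lower by 1.49 (log2 -1.49, SE 0.426, adjusted p = 0.0414) and the Tlr13 effect by 1.46 (log2 -1.46, SE 0.428, adjusted p = 0.0472). With no filter the last pair of calls was lost (0.102 for Tlr4 and 0.0781 for Tlr13), as it was with limma voom (0.0793 and 0.137). The Tlr4 call was lost in 11 of 15 fits that left out 1 library (adjusted p 0.0516 to 0.133), all but those without WT or IRF8KO replicates 3 and 4. The Tlr13 call was lost in 12 of 15 (0.052 to 0.143), all but those without WT replicate 4, flox replicate 3 or Cre replicate 2. Tlr4 itself was 33.8, 28.7 and 26.7 CPM in flox and 15.9, 31.5, 28.8 and 27.0 CPM in Cre, and Tlr13 was 39.9, 44.4 and 23.5 CPM against 29.8, 64.3, 39.9 and 48.0 CPM, with overlap in both.

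In Batf3KO 3 of the 10 members changed, by 1.28-fold to 1.57-fold, and 7 did not pass the test. Tlr7 rose from 168.3, 166.2 and 183.8 CPM in WT to 230.5, 221.2 and 236.5 CPM in Batf3KO (1.38-fold, log2 0.46, SE 0.0842, adjusted p = 0.00798). Cd180 fell from 67.6, 60.1 and 61.5 CPM to 40.5, 42.1 and 33.2 CPM (1.57-fold, log2 -0.65, SE 0.12, adjusted p = 0.00892), and Cd14 fell from 758.2, 682.1 and 612.1 CPM to 484.2, 523.3 and 527.7 CPM (1.28-fold, log2 -0.36, SE 0.0755, adjusted p = 0.018). The groups did not overlap for these 3 genes. Among all genes, 1.41% were called higher and 2.42% lower. Ly86 was 910, 889 and 860.3 CPM in the WT libraries and, in those of Batf3KO, 767, 835 and 729 CPM (log2 -0.13, SE 0.0727, adjusted p = 0.362). The Cd180 call held in every fit that left out 1 library. Leaving out WT replicate 1 (0.0716) or 2 (0.0913), or Batf3KO replicate 1 (0.112) or 2 (0.0627), ended the Cd14 call, and leaving out WT replicate 2 (0.0668) or Batf3KO replicate 1 (0.0509) ended that of Tlr7. None of the 3 was called when all 33 libraries shared 1 model (adjusted p = 1). Tlr4 (log2 0.31, adjusted p = 0.291) was called without WT replicate 3 (0.54, adjusted p = 0.0155).

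Against the IRF8KO effect at 3 months, the Batf3KO effect differed for 3 of 10 members, where 3.22% of genes differed in either direction. The difference was 6.81 for Ly86 (log2, SE 0.663, adjusted p = 9.58e-05), -2.09 for Tlr13 (SE 0.335, adjusted p = 0.00314) and -1.31 for Tlr2 (SE 0.322, adjusted p = 0.0404). The first pair held under every alternative. The Tlr2 call was lost without IRF8KO replicate 3 or 4 (0.0706 and 0.0637) or without any 1 library of the Batf3KO experiment (0.112 to 0.145), with size factors of the DESeq2 type (0.0685) and with no filter (0.23).

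The WT libraries of the 3-month experiments were themselves far apart. Of the 10 members, 7 were higher in WT of the Batf3KO experiment than in WT of the IRF8KO experiment, where 16.3% of all genes were called higher. Tlr13 differed most, at 311.1, 314.4 and 321.1 CPM against 34.2, 31.1, 25.6 and 46.5 CPM (8.66-fold, log2 3.11, SE 0.302, adjusted p = 0.000152). The others called were Tlr3 (log2 2.31, SE 0.71, adjusted p = 0.0244), Tlr1 (2.21, SE 0.433, adjusted p = 0.00307), Tlr2 (2.21, SE 0.284, adjusted p = 0.000401), Tlr4 (2.19, SE 0.317, adjusted p = 0.000714), Cd180 (2.05, SE 0.44, adjusted p = 0.00478) and Tlr7 (1.39, SE 0.356, adjusted p = 0.011). The 3 members not called were Tlr9 (1.69, adjusted p = 0.182), Cd14 (0.64, adjusted p = 0.292) and Ly86 (-0.69, adjusted p = 0.184). The Tlr3 call was lost without WT replicate 2 of the IRF8KO experiment (0.0662) or replicate 3 of the other (0.0506), and Tlr9 was called without replicate 1 of the former (2.67, adjusted p = 0.0271). The median log2 difference was 2.12 over the members and -0.12 over all genes. Microglial markers took 3.8% to 3.98% of counts in WT of the Batf3KO experiment and 0.799% to 1.9% in the other, and neutrophil markers up to 0.000477% against 0.853% to 5.38%. Red blood cell markers took 0.01% to 0.0221% against 3.05% to 10.3%, oligodendrocyte markers 0.0477% to 0.049% against 0.502% to 5.61%, astrocyte markers 0.0226% to 0.0245% against 0.137% to 0.809%, neuron markers up to 0.00133% against 0.0281% to 0.0546%, and monocyte markers up to 0.000657% against 0.0485% to 0.258%. Y-linked transcripts took 0% against 0.000781% to 0.0107%. Both groups are labelled WT, female and 3 months old, and the part of these differences in the member levels was not tested.

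The order of the group means showed where the groups separated. Tlr13 ran from 315.5 CPM in WT of the Batf3KO experiment through Batf3KO (289.9), 5xFAD (275.1), WT at 9 months (270.5) and 5xFAD/IRF8KO (232.3) to IRF8KO at 3 and 9 months (135.7 and 135.0) and then Cre (45.5), flox (35.9) and WT of the IRF8KO experiment (34.3). Neighbours in that order overlapped except at the steps from 5xFAD/IRF8KO to IRF8KO and from IRF8KO to Cre. Ly86 ran from 2191 CPM in 5xFAD to 777 CPM in Batf3KO over 7 groups whose neighbours overlapped, and then dropped without overlap to 10.5, 6.42 and 3.76 CPM in IRF8KO at 3 months, IRF8KO at 9 months and 5xFAD/IRF8KO. Tlr2 was highest in 5xFAD/IRF8KO (252.5 CPM), WT of the Batf3KO experiment (248.2) and IRF8KO at 9 months (246.2), which overlapped, and lowest in Cre (42.0) and flox (28.1), which overlapped too. Cd14 was highest in 5xFAD (924.1 CPM), apart from WT of the Batf3KO experiment (684.1) but overlapping Cre, which reached 830.7 CPM, and lowest in IRF8KO at 3 months (191.6). Cd180 was highest in WT of the Batf3KO experiment (63.1 CPM), apart from Batf3KO (38.6), and lowest in the 3 groups without germline Irf8 (5.65 to 7.86), which overlapped. For Tlr9 the 2 groups of the Batf3KO experiment (9.74 and 8.85 CPM) overlapped and lay above the next, Cre (4.04). WT of the Batf3KO experiment, down to 6.86 CPM, overlapped WT of the IRF8KO experiment, which reached 7.18 CPM. The means of the 3 groups without germline Irf8 (0 to 0.319) were the lowest.

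Across the 10 group means some pairs of members had similar levels, given here as a description only, since the points share experiments, libraries and depth. On log levels, Pearson's r over the 10 groups was 0.978 for Tlr4 with Tlr13, 0.923 for Tlr2 with Tlr13 and 0.915 for Tlr2 with Tlr4. It was 0.907 for Cd180 with Ly86, 0.915 for Cd180 with Tlr9, 0.878 for Cd14 with Cd180 and 0.866 for Tlr1 with Tlr3. For Tlr7 it was 0.839 with Tlr1 and 0.774 with Tlr4, and for Tlr2 with Ly86 it was -0.391. Of 14071 genes compared, those most like Ly86 were Siglech (r = 0.981), a microglial lectin, and Aif1 (0.98), which encodes the macrophage protein IBA1. Those most like Tlr7 were C3ar1 (0.979), the receptor for complement fragment C3a, and Cd164 (0.972). Tlr13 was most like Slc35b4 (0.981) and Tlr4, Tlr4 like Zbtb2 (0.983) and Zfp87 (0.978), Tlr2 like Parvg (0.981) and Actr1b (0.979), Tlr3 like Suox (0.965) and Alg12 (0.965), Tlr1 like BC037034 (0.985) and Ldb1 (0.981), and Tlr9 like Tbc1d16 (0.979) and Klhl18 (0.976). Cd180 was most like Mlph (0.99) and Myadml2 (0.989), and Cd14 had the loosest matches, Pcdhb22 (0.958) and 4933434E20Rik (0.956).

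The other Toll-like receptors added 2 genes with sharp patterns. Tlr8 (chromosome X, 167242696 to 167264329, minus strand, close to Tlr7), a sensor of single-stranded RNA, was 0.55, 0, 0 and 0 CPM in the WT libraries and, in those of IRF8KO, 24.2, 19.7, 41.7 and 27.5 CPM at 3 months, from 1 count against 878 (log2 9.00, SE 1.15, adjusted p = 0.00174). At 9 months IRF8KO had 0.128, 0 and 33.2 CPM and 5xFAD/IRF8KO 66.5, 15.2 and 0 CPM, uneven within each group and not called (adjusted p = 0.148 and 0.0758), and no library of the other groups exceeded 0.552 CPM. Tlr12, a profilin sensor of the mouse (chromosome 4, 128615443 to 128618619, minus strand), went the other way. It was 13.8, 8.07, 15.5 and 21.2 CPM in the WT libraries and, in those of IRF8KO, 0, 0, 0 and 1.82 CPM at 3 months (log2 -5.07, SE 1.39, adjusted p = 0.045), a call lost without any 1 library other than IRF8KO replicate 4 (0.058 to 0.121). At 9 months Tlr12 had 0 counts in all 6 libraries without Irf8, at least 515-fold lower than WT and at least 430-fold lower than 5xFAD against a floor of 3 counts over the group. In the conditional experiment Tlr12 was 21.5, 24.2 and 18.8 CPM in flox and 2.62, 14.0, 6.39 and 13.6 CPM in Cre, lower in every library yet not called (log2 -1.17, adjusted p = 0.392). The lowest, at 2.62 CPM, was Cre replicate 1, the library with Irf8 at the flox level against its label. In Batf3KO Tlr12 fell from a mean of 133.3 to 86.4 CPM (log2 -0.57, SE 0.102, adjusted p = 0.00722). Ly96, which encodes the TLR4 partner MD-2, rose in Batf3KO from 18.9 to 32.1 CPM (log2 0.82, SE 0.158, adjusted p = 0.0119). Tlr5 and Tlr6 were not called in any comparison between genotypes.

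**Figure D5:**
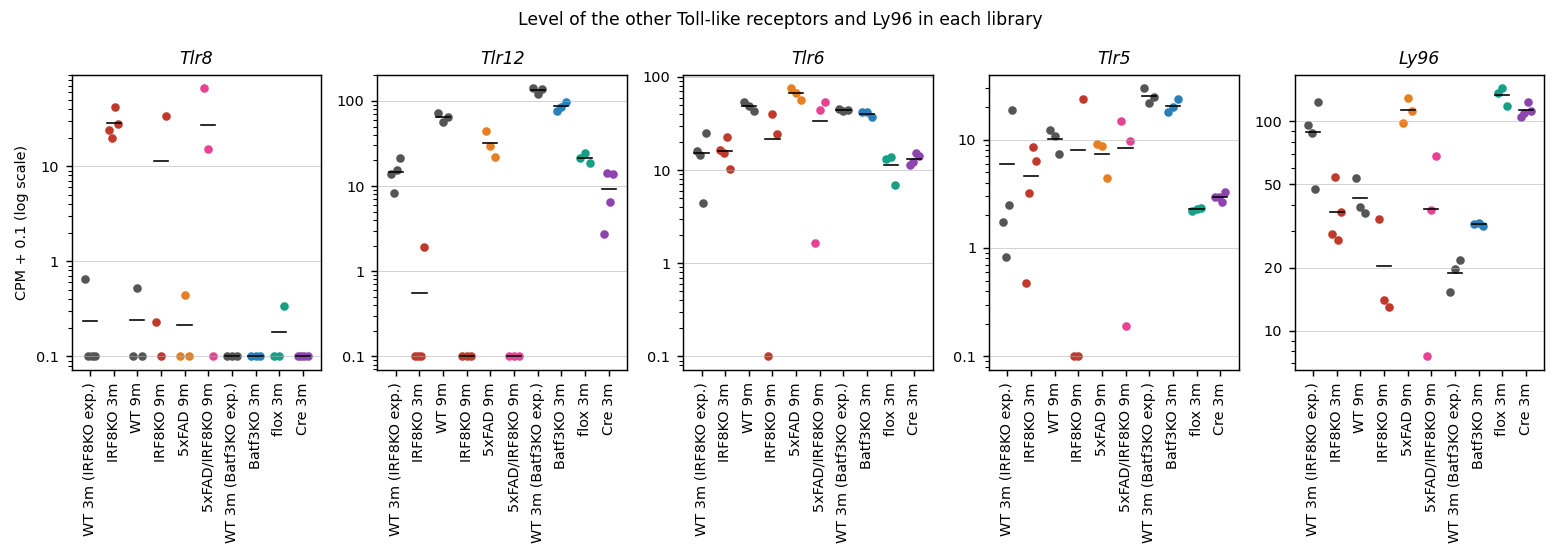
Level of Tlr8, Tlr12, Tlr6, Tlr5 and Ly96 in each library (CPM + 0.1, log scale), with bars at the group means; a library with 0 counts sits at 0.1. Tlr8 is at 15.2 CPM or more in all 4 IRF8KO libraries at 3 months and in 3 of the 6 libraries without Irf8 at 9 months, and Tlr12 is at 0 counts in those 6.

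The rest of the pathway was read from 6 lists of 70 genes: the other receptors, receptor partners and chaperones, adaptors and kinases, transcription factors, negative regulators and target cytokines. In IRF8KO at 3 months 4 rose and 6 fell of 63 tested, where 4.15% of all genes were called higher and 3.24% lower. The kinase Ikbke rose from 0.21 to 22.9 CPM (log2 6.37, SE 1.25, adjusted p = 0.0113) and Irak3, a kinase-dead brake on receptor signalling, from 8.15 to 51.7 CPM (log2 2.61, SE 0.503, adjusted p = 0.0103). The adaptor Sarm1 had 0 counts in IRF8KO and 248 in WT, at least 69.1-fold lower, and the chemokine Ccl4 fell from 140.6 to 8.28 CPM (log2 -4.14, adjusted p = 0.0285). At 9 months 6 rose and 13 fell of 65, where 19.6% of all genes were called higher and 8.68% lower. Receptor partners and chaperones made up 7 of the falls, among 12 tested: Unc93b1, the chaperone of endosomal receptors, fell from 1657 to 327.8 CPM (log2 -2.51, SE 0.341, adjusted p = 0.000214), and Lgmn, a protease that processes them, from 3818 to 631.1 CPM (log2 -2.76, SE 0.299, adjusted p = 4.11e-05). Of the 8 transcription factors 4 fell, led by Irf5 (411.7 to 42.3 CPM, log2 -3.46, SE 0.564, adjusted p = 0.000781). Lbp, which binds lipopolysaccharide in plasma, had 0 counts in WT and rose at least 213-fold, and Ikbke and the neutrophil chemoattractant gene Cxcl2 rose by log2 6.73 (adjusted p = 0.00471) and 6.15 (adjusted p = 0.0198). Yet Lbp averaged 53.0 CPM in WT of the 3-month IRF8KO experiment, near the 61.8 CPM of IRF8KO at 9 months. The part of other cell types in the Lbp levels was not tested.

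In 5xFAD against WT 3 of the 65 rose and 1 fell, where 1.81% of all genes were called higher and 0.178% lower. The inflammatory cytokine gene Il1b (log2 2.99, SE 0.657, adjusted p = 0.0407) and the lysosomal proteases Ctsl (1.29, SE 0.283, adjusted p = 0.0412) and Ctsb (1.18, SE 0.25, adjusted p = 0.0357) rose, and the phosphatase gene Dusp1, which also belongs to the dissociation response, fell (-2.54, SE 0.563, adjusted p = 0.0412). The summed dissociation response genes took 0.133% to 0.321% of counts in WT and 0.0368% to 0.0453% in 5xFAD. Xist was called higher in 5xFAD as well (log2 8.02). The part of the dissociation response and of sex in these differences was not tested. In 5xFAD/IRF8KO against 5xFAD 7 rose and 15 fell of 65, where the shares over all genes were 18% and 9.72%. Lbp (log2 8.80, adjusted p = 0.000772), Ikbke (6.27, adjusted p = 0.00408) and Dusp1 (4.46, adjusted p = 0.00022) rose most. The adaptor gene Ticam1, which serves TLR3 and TLR4, and the chemokine gene Ccl2 had 0 counts in 5xFAD/IRF8KO and were at least 343-fold and 214-fold lower than in 5xFAD. In Batf3KO 3 rose and 2 fell of 60, where 1.41% of all genes rose and 2.42% fell. Apart from Ly96 and Tlr12 these were Ccl4 (log2 0.72, adjusted p = 0.021), the endosomal transporter gene Slc15a4 (0.44, adjusted p = 0.028) and Lgmn (-0.30, adjusted p = 0.0143). Between the WT groups at 3 months 20 of 61 were higher in the Batf3KO experiment and 7 were lower, where 16.3% of all genes were called higher and 26.5% lower. Irak2, a kinase of the receptor complex, led the higher ones (log2 3.27, adjusted p = 0.000157). The differences were larger for 3 of the lower ones, Lbp (-7.42, adjusted p = 0.000825), Dusp1 (-4.66, adjusted p = 0.0014) and Cd36, a scavenger receptor that works with TLR2 (-4.60, adjusted p = 0.00425).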

How the data were processed

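The authors deposited 33 files of raw read counts per gene, in the layout of the STAR aligner's gene counts. Per the submitters' processing notes the build was mm10 and the tools included bcl2fastq, STAR 2.5.2b, Picard 2.17.11, Subread and featureCounts. Per the labels' protocols cDNA came from SMART-Seq v4 and Nextera XT, which carry no molecular identifiers, so intervals and floors cover counting error only. Unstranded counts were used, since the first strand column held 49.5% to 50.1% of stranded counts, and reads of overlapping antisense genes cannot be told apart. The 4 summary lines were left out. Counts in genes made up 47.3% to 78.6% of a library's reads and ran from 605376 to 18357762. Of 54146 identifiers 54079 matched GENCODE M21 (GRCm38) when the version was ignored, and symbols and coordinates (1-based) come from it.

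Genes were filtered with edgeR's default rule, scaled with TMM factors and tested in R 4.3.3 by the quasi-likelihood F test (edgeR 4.0.16). Adjusted p-values, by Benjamini-Hochberg over all genes tested, are edgeR's except where DESeq2 or limma is named, and a gene was called at 0.05. The 12 libraries of 9 months shared 1 model, the other comparisons used their own groups, and differences between effects were contrasts in 1 model of 4 groups. Standard errors derive from the F statistic. Levels are CPM with TMM factors over all 33 libraries. The scripts were tested on simulated data. Alternatives were CPM without TMM factors, size factors of the DESeq2 type, DESeq2 1.42.0, limma 3.58.1 voom with quality weights, no filter, a replicate block, 1 model of all libraries, only the groups compared, and leaving out each library. The members, the gene lists and the markers were chosen with earlier results of these data known. Named pathway genes were up to 3 largest rises and 3 largest falls in each comparison among called genes whose libraries did not overlap and whose higher group reached 5 CPM, together with the other Toll-like receptors and Ly96. Other genes named from the lists, such as Unc93b1, were chosen after their values were seen. Promoter sequences are from RefSeq on GRCm38.p6.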

Additional observations from a re-analysis of the deposited data

Results flagged for a closer look

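Dixon's criterion for a single library standing apart was applied to each of the 10 members in each group of 4 libraries. These groups were WT and IRF8KO of the 3-month IRF8KO experiment and Cre. Chance meets the criterion in about 1 in 20 such sets without ties, so some hits can arise by chance alone. It was met in 2 sets. Tlr7 was 104.9 CPM in WT replicate 4 of the 3-month IRF8KO experiment, where the others had 43.8 to 50.8 CPM. Tlr9 was 1.27 CPM in IRF8KO replicate 4 at 3 months, where the other 3 libraries had 0 counts. With 3 values tied at 0 any other value meets the criterion, so it says nothing about that library.

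Several members responded differently in 2 settings by a test of the difference itself. The IRF8KO effect on Tlr3 was higher with 5xFAD by 6.05 on the log2 scale at 9 months. Against the IRF8KO effect at 3 months, that at 9 months differed by -6.92 for Tlr3, -2.24 for Tlr4 and -3.01 for Tlr13. Against the same IRF8KO effect at 3 months, the Cre effect differed by -1.49 for Tlr4, -1.46 for Tlr13 and 7.99 for Ly86, and the Batf3KO effect by -1.31 for Tlr2, -2.09 for Tlr13 and 6.81 for Ly86. The comparisons with the 3-month effect share its WT and IRF8KO libraries. Both Tlr3 differences, those of Tlr4 and Tlr13 with Cre and that of Tlr2 with Batf3KO were lost under some alternatives, as given above. The Cre group included replicate 1, the library with Irf8 at the flox level, and without it the Tlr4 and Tlr13 calls were lost.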

How the results depend on the processing

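No called value changed sign under any alternative, while 133 values of genes that were not called under either setting did. The number of members called, with the range on leaving out each library in turn, was 4 in IRF8KO at 3 months (2 to 5), 7 at 9 months (3 to 7), 1 in 5xFAD (0 to 1), 4 in 5xFAD/IRF8KO against 5xFAD (2 to 5), 1 in 5xFAD/IRF8KO against IRF8KO (0 to 1), 1 in the interaction (0 to 2), 3 in Batf3KO (1 to 4), 0 in Cre (0 to 3, with the 3 without Cre replicate 1), 3 for the 9-month minus the 3-month effect (3 to 4), 3 for the Cre minus the IRF8KO effect (1 to 4), 3 for the Batf3KO minus the IRF8KO effect (2 to 4) and 7 between the WT groups (6 to 8). With only the 2 groups compared in the model the number was 4 in IRF8KO at 9 months, 3 in 5xFAD and 0 in 5xFAD/IRF8KO against IRF8KO. With no filter on low counts it was 0 in 5xFAD, 2 in the interaction, 1 in Cre and 1 for the Cre minus the IRF8KO effect. With limma voom it was 4 in 5xFAD, 0 in 5xFAD/IRF8KO against IRF8KO and 0 in the interaction, and with DESeq2 it was 2 in the interaction. Size factors of the DESeq2 type gave 0 in 5xFAD. With all 33 libraries in 1 model it was 0 in 5xFAD, 0 in Batf3KO and 5 for the 9-month minus the 3-month effect. The replicate numbers did not pair the samples: over 22 pairs the correlation of their deviations was -0.169 to 0.172. With the replicate block the number was 0 in 5xFAD, 0 in 5xFAD/IRF8KO against IRF8KO, 0 in the interaction and 1 for the Cre minus the IRF8KO effect. The cause of these changes was not tested. Depth limits Tlr9, which had 1 to 33 counts in the WT libraries at 9 months. Tlr1, Tlr3 and Cd180 differed between libraries of like depth: in IRF8KO at 9 months Tlr1 had 0 counts in replicate 1 and 150 in replicate 2, of 8206354 and 8170797 counts in genes. In IRF8KO at 3 months Tlr3 had 2, 0 and 75 counts in replicates 1, 2 and 4, of 6174584, 6025471 and 5957998 counts in genes.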
